A study of Homo sapiens with 12 samples.

Results

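DNA replication genes code for the proteins that copy the genome in S phase. The 39 genes described here were listed by gene symbol with earlier results of these data known, by a rule that uses no measured value, and all 39 had a row among the 13001 genes of the RNA-seq count table. They were measured in LNCaP cells (clone FGC), a line established from a lymph node metastasis of prostate cancer, cultured with serum. The cells were transiently transfected with plasmids coding for LSD1, for LSD1+8a or for SRRM4, or with an empty vector, and each of these 4 groups had 3 libraries. LSD1, the product of KDM1A, is a histone demethylase, LSD1+8a is its splice form with an added exon, and SRRM4 is a neural splicing factor. The study concerned the link between SRRM4 and LSD1+8a in prostate cancer of neuroendocrine type. The comparisons used here were each plasmid against the empty vector and the plasmids against each other. All groups were transfected and all shared passage 8, and the medium was changed 6 h after transfection. The labels do not give the time of harvest or the share of cells that took up plasmid. Nor do they say whether the 3 libraries of a group were separate cultures, so p-values reflect only how much these libraries vary, and that variation could be technical. In such bulk RNA, fewer cells in S phase and less transcript per cell cannot be told apart.

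Replication starts when the origin recognition complex, CDC6 and CDT1 load the MCM2-7 helicase onto DNA. CDC45 and the GINS complex then convert MCM2-7 into the active helicase, primase starts each strand, and the polymerases extend it on the PCNA clamp, which the RFC complex loads. FEN1 and LIG1 process and join the lagging-strand fragments, ribonucleotide reductase, TYMS and TK1 supply deoxynucleotides, and CHAF1A and UHRF1 restore chromatin behind the fork. Many of these genes are transcribed at the G1/S transition under E2F factors, which RB family proteins hold in check.

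The RNA carried the markers of the cell line and, in the LSD1 and LSD1+8a groups, a raised level of the transfected gene. The 7 LNCaP and prostate epithelium markers given here (KLK2, KLK3, HOXB13, FOLH1, TMPRSS2, KRT8 and KRT18) had rows, and their summed level ran from 6237 to 7238 CPM (counts scaled to library size with TMM factors). Of the markers of other cell types, 2 of 6 for fibroblasts, 0 of 6 for leukocytes and 1 of 5 for an embryonic kidney line had rows in this table. The transfected gene KDM1A stood at 94.3 ± 0.828 CPM (SD, n = 3) with the empty vector, 96.3 ± 4.06 with SRRM4, 540 ± 40.5 with LSD1 and 2268 ± 316 with LSD1+8a. These counts cannot separate the splice forms of KDM1A, and the transcript of SRRM4 itself was not analysed here. The label of the SRRM4 group was therefore not checked by its transfected gene. Library totals were 12750609 to 13570740 counts with the empty vector, 10876293 to 11485489 with SRRM4, 11658730 to 12565335 with LSD1 and 12110101 to 13359671 with LSD1+8a, so the SRRM4 libraries were the least deep. The 39 genes together made up 0.278% to 0.297% of the counts of a library.

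The promoters of these genes show what many of them share beyond the list. RefSeq promoter windows (GRCh38.p14, 250 bases before to 50 after the transcription start, 300 bases in all) were matched by symbol for 35 of the 39 genes, and MCM4, MCM5, POLD3 and CCNE2 had no entry. The submitters' processing notes name hg19, so the coordinates below belong to RefSeq and not to the expression tables. Both strands were searched for E2F letters (TTTCCCGC, TTTCGCGC, TTTGCCGC or TTTGGCGC), for CCAAT, the core of NF-Y sites, and for TTTGAA, a core of the CHR element of G2/M genes. E2F letters stood in 20 of the 35 windows (57.1%), against 3.33% of 27305 RefSeq windows and 5.52% of the 9040 windows of genes in the count table. CCAAT stood in 21 windows (60.0%), against 35.7% and 37.2%. TTTGAA stood in 1 window (2.86%, that of RRM1), against 15.4% and 9.06%. Both E2F letters and CCAAT occurred in 11 windows, and neither occurred in 5 (RFC4, RFC2, FEN1, TK1 and POLD1). A match is a string of letters, not a measured binding site, and a window without one says only that these letters are not in it.

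The 160 bases before the transcription start are shown for 5 genes. RRM1 (chr11:4094525-4094684, plus strand), RRM2 (chr2:10122579-10122738, plus strand) and CHAF1A (chr19:4402480-4402639, plus strand) are the genes whose RNA passed the test in a comparison. MCM6 (chr2:135876444-135876603, minus strand) had the most E2F matches, and PCNA (chr20:5126623-5126782, minus strand) had the highest level in TPM, a scale explained below. Each is written 5′ to 3′ on the strand of the gene, and capitals mark CCAAT and the E2F letters on either strand.
RRM1: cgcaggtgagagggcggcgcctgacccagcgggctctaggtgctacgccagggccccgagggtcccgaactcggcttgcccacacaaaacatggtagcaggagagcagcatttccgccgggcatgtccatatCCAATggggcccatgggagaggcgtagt
RRM2: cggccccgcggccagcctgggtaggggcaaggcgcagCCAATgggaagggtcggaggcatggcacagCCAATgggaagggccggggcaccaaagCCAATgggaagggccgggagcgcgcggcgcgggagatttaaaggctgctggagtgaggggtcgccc
CHAF1A: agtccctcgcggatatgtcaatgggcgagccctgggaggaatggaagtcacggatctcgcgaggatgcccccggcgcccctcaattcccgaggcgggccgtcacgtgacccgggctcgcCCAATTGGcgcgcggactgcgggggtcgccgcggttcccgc
MCM6: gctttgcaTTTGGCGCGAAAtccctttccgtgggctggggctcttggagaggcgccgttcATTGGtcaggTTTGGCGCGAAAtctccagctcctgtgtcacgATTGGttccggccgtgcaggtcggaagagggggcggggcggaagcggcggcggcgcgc
PCNA: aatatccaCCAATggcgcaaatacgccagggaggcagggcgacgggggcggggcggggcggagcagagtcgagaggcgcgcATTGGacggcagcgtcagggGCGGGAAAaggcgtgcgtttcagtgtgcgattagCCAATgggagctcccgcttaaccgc
MCM6 held 4 overlapping E2F matches in 2 clusters, the string TTTGGCGCGAAA starting 152 and 90 bases before the transcription start, because the letters TTTGGCGC on 1 strand and TTTCGCGC on the other overlap. PCNA held 1 E2F match, starting 59 bases before the start, among 3 CCAAT boxes. RRM2 held 3 CCAAT matches in short spacing, at 123, 93 and 66 bases before the start, and no E2F letters in the window. RRM1 had 1 CCAAT in the stretch shown. CHAF1A had CCAATTGG, which reads as CCAAT on both strands, and 2 further CCAAT matches upstream of it in the window. None of the 3 genes that passed a test in RNA had the E2F letters in its window, and 15 of the 35 windows had none.

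Levels of the 39 genes spanned a 50.8-fold range. On the scale of TPM (transcript amounts scaled for transcript length and library size), the mean with the empty vector ran from 3.68 for E2F2 to 186.9 for PCNA, with a median of 33.4. Among the helicase genes MCM4 (135.3 TPM) and MCM7 (119.3) led, MCM3 (70.4), MCM2 (67.1), MCM5 (60.7) and MCM6 (39.6) were lower, and CDC45 (25.1), GINS1 (18.6), GINS2 (18.2), MCM10 (14.2) and GINS3 (13.6) lowest. So the 6 subunits of the MCM2-7 ring, which are used in equal number, differed in transcript level by several fold. Of the licensing genes CDT1 (48.3 TPM) and CDC6 (36.2) exceeded the origin recognition subunits ORC6 (25.6) and ORC1 (10.8). Polymerase genes were lower than the clamp: POLA2, the accessory subunit of polymerase alpha, had 35.4 TPM, and POLA1, its catalytic subunit, had 9.08. POLD1 and POLE, the catalytic subunits of polymerases delta and epsilon, had 24.6 and 19.1 TPM, primase subunit PRIM1 had 22.8, POLD3 had 15.1 and POLE2 had 7.68. The clamp loader subunits ranged from 20.8 TPM (RFC3) to 52.8 (RFC2), FEN1 had 60.6 and LIG1 19.4. All 4 nucleotide supply genes stood above 100 TPM in the empty vector, with TK1 at 131.2, RRM2 at 128.0, RRM1 at 119.4 and TYMS at 111.9. Of the regulators, CHAF1A had 40.7 TPM, E2F1 33.4, UHRF1 18.4 and CCNE2, which codes for cyclin E2, 11.2.

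**Figure D1:**
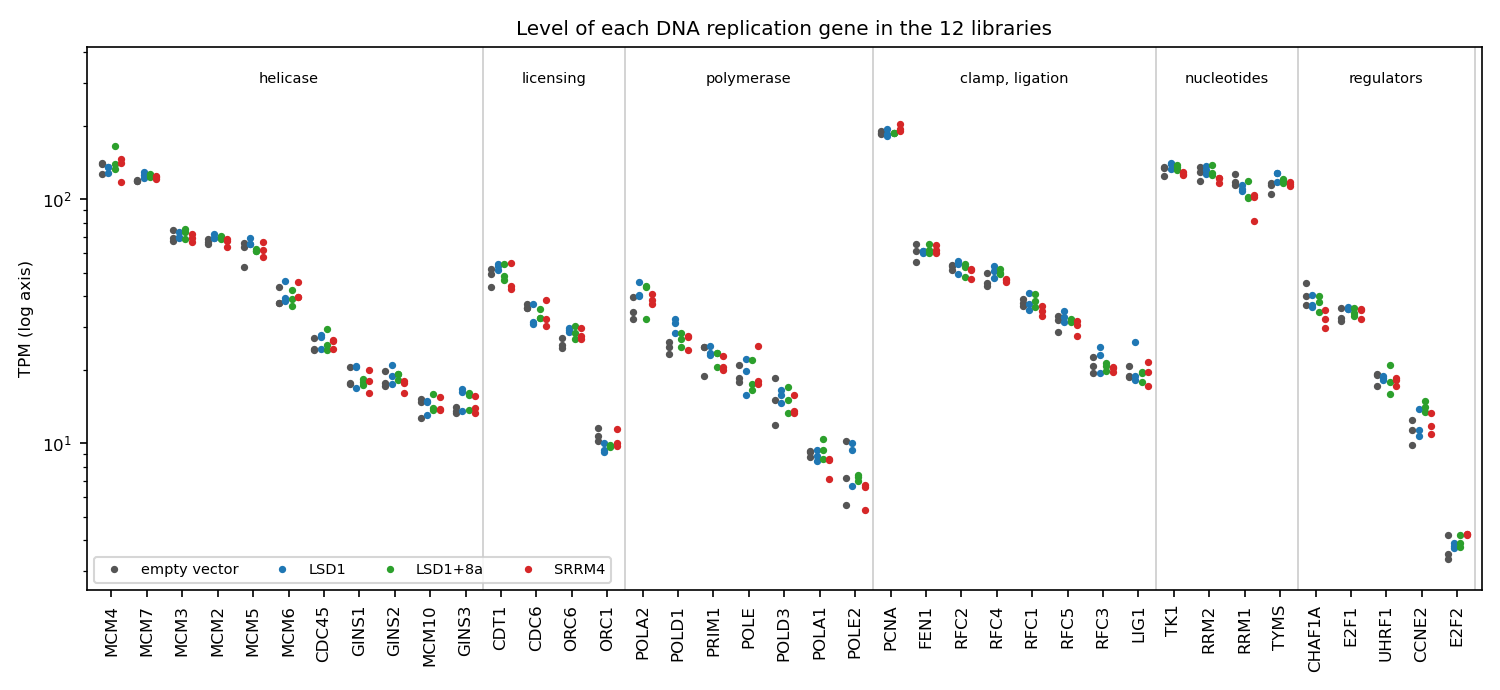
TPM (log axis) of each of the 39 genes in each of the 12 libraries, 1 point per library, coloured by plasmid and grouped by role. PCNA is the highest and E2F2 the lowest, and the 12 libraries of a gene lie close together beside the range between genes.

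Between the 4 groups, all of them transfected, these levels differed little. The mean CPM of the highest group exceeded that of the lowest by a median factor of 1.07 over the 39 genes, and at most by 1.19, for CCNE2. Within a group, the 3 libraries of a gene differed by a median coefficient of variation of 4.96%, from 2.48% for MCM7 to 19.6% for POLE2, which had only 49 to 100 counts per library. The group with the lowest mean was SRRM4 for 21 genes, the empty vector for 7, LSD1 for 6 and LSD1+8a for 5. LSD1 held the highest mean for 20 genes. These counts are descriptions, since the 39 genes share the same libraries.

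Against the empty vector, the RNA of 3 genes fell with SRRM4: RRM1 and RRM2, the large and small subunits of ribonucleotide reductase, and CHAF1A, the large subunit of the histone chaperone CAF-1. The falls were small, with percent changes of -8.67% for RRM1, -8.75% for RRM2 and -10.8% for CHAF1A. No other of the 39 genes passed the test, including every helicase, licensing, polymerase and clamp gene. The test was edgeR's quasi-likelihood F test over all 13001 genes, at a Benjamini-Hochberg adjusted p under 0.05. The count was 0 higher and 3 lower of 39, beside 4.47% higher and 3.22% lower among all genes (0 higher and 5 lower of the 39 had an unadjusted p under 0.05, beside 10.8% and 9.95% of all genes). The median log2 fold change was -0.03, against 0.00 for all genes, and 27 of the 39 estimates lay below 0, against 50.4% of all genes. Over all genes the split was 581 higher and 418 lower, or 497 and 561 with upper-quartile factors, under which the same number of the 39 passed.

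RRM1 had 175, 180 and 191 CPM with the empty vector, 161, 168 and 169 with SRRM4, 176, 178 and 178 with LSD1 and 177, 175 and 171 with LSD1+8a. In CPM all 3 SRRM4 libraries lay below all 9 others. Its log2 fold change for SRRM4 against the empty vector was -0.13 (SE 0.036, edgeR adjusted p = 0.0174). Against LSD1+8a and LSD1 it was -0.07 and -0.09, with edgeR adjusted p = 0.264 and 0.131. RRM2 had 135, 128 and 133 CPM with the empty vector, 114, 125 and 122 with SRRM4, 139, 143 and 135 with LSD1 and 141, 132 and 129 with LSD1+8a. Here too the SRRM4 libraries were below every other library in CPM. RRM2, whose product limits the enzyme's activity in S phase, fell against all 3 other groups. Its log2 fold change was -0.13 (SE 0.041, edgeR adjusted p = 0.0410) against the empty vector, -0.15 (edgeR adjusted p = 0.0154) against LSD1+8a and -0.20 (edgeR adjusted p = 0.00116) against LSD1.

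CHAF1A had 74.7, 72.2 and 69.9 CPM with the empty vector, 62.9, 68.2 and 62.3 with SRRM4, 69.9, 71.7 and 70.1 with LSD1 and 74.1, 69.0 and 72.2 with LSD1+8a. The highest SRRM4 library was just below the lowest of the others in CPM. The log2 fold change was -0.17 (SE 0.048, edgeR adjusted p = 0.0262) against the empty vector and -0.16 (edgeR adjusted p = 0.0392) against LSD1+8a, while against LSD1 it was -0.13 with edgeR adjusted p = 0.1003. These comparisons share the SRRM4 libraries and are not independent of each other. The 3 calls against the empty vector rested on few libraries. Without SRRM4 replicate 2 all 3 passed. Without SRRM4 replicate 1 none of the 3 passed, without empty vector replicate 2 RRM1 and RRM2 did, without empty vector replicate 1 only RRM1 did, without empty vector replicate 3 only CHAF1A did, and without SRRM4 replicate 3 only RRM1 did. DESeq2 called 0 of the 39 (adjusted p = 0.0519 for RRM1, 0.127 for RRM2 and 0.119 for CHAF1A), and so did limma on TPM. Over the 15 alternatives the adjusted p ranged from 0.00690 to 0.139 for RRM1, from 0.0189 to 0.464 for RRM2 and from 0.0127 to 0.131 for CHAF1A.

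**Figure D2:**
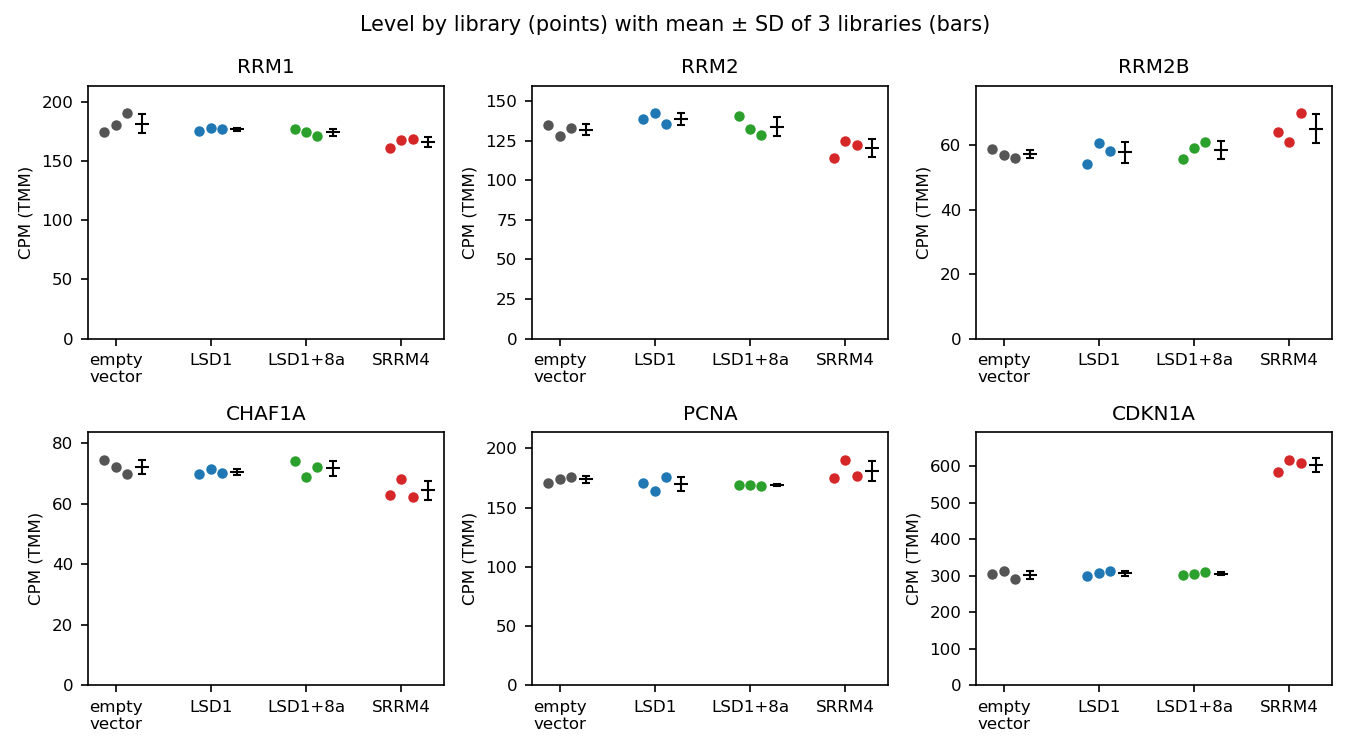
CPM of RRM1, RRM2, RRM2B, CHAF1A, PCNA and CDKN1A in each library (points), with the mean and SD of the 3 libraries of a group (bars) and each vertical axis from 0. RRM1, RRM2 and CHAF1A are slightly lower with SRRM4, CDKN1A is near 300 CPM in 9 libraries and near 600 in the 3 SRRM4 libraries, and RRM2B is slightly higher with SRRM4.

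The remaining roles gave values near those of the empty vector. Helicase genes summed to 1089 ± 31.1 CPM (SD, n = 3) with the empty vector and 1081 ± 27.0 with SRRM4, and 0 of the 11 passed in either direction by edgeR, DESeq2 or limma (0 also at an unadjusted p under 0.05 in edgeR). MCM4, the highest of them in TPM, had 190, 176 and 193 CPM with the empty vector and 172, 188 and 182 with SRRM4, which overlap. GINS2 had 34.6, 38.3 and 33.9 CPM with the empty vector and 31.2, 35.7 and 32.9 with SRRM4, again overlapping. Clamp, loader and ligation genes summed to 567 ± 8.78 CPM and 570 ± 17.6. PCNA had 171, 174 and 176 CPM with the empty vector and 175, 191 and 177 with SRRM4, and its log2 fold change was 0.06 (SE 0.036, edgeR adjusted p = 0.378). Nucleotide supply was the role whose sums did not overlap, at 569 to 573 CPM with the empty vector and 525 to 547 with SRRM4. RRM1 and RRM2 are members of it. Its sums with LSD1 did not overlap the empty vector either, and lay above it at 579 to 584 CPM. TK1, the salvage kinase of thymidine, had 145, 150 and 137 CPM with the empty vector and 138, 144 and 142 with SRRM4. TYMS, which makes dTMP, had a log2 fold change of -0.02 with SRRM4.

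Polymerase and primase genes summed to 271 ± 3.46 CPM with the empty vector and 263 ± 5.01 with SRRM4. All 7 estimates lay below 0, against 50.4% of all genes, with none passing and that of POLE at -0.0009. In TPM the log2 ratios of POLA2 (0.13), POLD1 (0.09) and POLE (0.07) lay above 0. Those of POLA1, PRIM1, POLD3 and POLE2 lay below 0. POLA1 had 36.3, 37.6 and 38.4 CPM with the empty vector and 29.5, 35.8 and 35.3 with SRRM4. The groups did not overlap, but SRRM4 replicate 1 was far below the other SRRM4 libraries, and the log2 fold change of -0.16 (SE 0.068) did not pass (edgeR adjusted p = 0.160). POLA2 had 49.0, 51.2 and 45.6 CPM and 47.3, 46.6 and 49.2. Over the whole list, 5 genes had all 3 SRRM4 libraries below all 3 empty vector libraries (POLA1, RFC1, RRM1, RRM2 and CHAF1A) and none above, beside 12.3% below and 13.0% above among all genes. Licensing genes summed to 176 ± 2.83 and 170 ± 7.68 CPM. CDT1, the loading factor for MCM2-7, had 62.0, 62.5 and 56.8 CPM with the empty vector and 59.6, 59.6 and 57.7 with SRRM4. The regulators E2F2 and CCNE2 had estimates above 0, at 0.12 each, that did not pass.

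With LSD1+8a, none of the 39 genes passed the test against the empty vector, although KDM1A RNA was above the empty vector by a log2 fold change of 4.59. The counts were 0 higher and 0 lower by edgeR, DESeq2 and limma, beside 0.285% higher and 0.0615% lower among all genes in edgeR. Without adjustment, 1 was higher and 1 lower at p under 0.05, beside 3.59% and 3.23% of all genes. The median log2 fold change was 0.01, against 0.00 for all genes. Of the 39 estimates 24 lay above 0 and 15 below, against 49.6% of all genes below 0. The genes at unadjusted p were CCNE2 and ORC1. CCNE2 had 16.3, 12.9 and 17.96 CPM with the empty vector and 18.1, 20.2 and 17.6 with LSD1+8a, which overlap, for a log2 fold change of 0.25 (SE 0.099, edgeR adjusted p = 0.584). ORC1, the largest subunit of the origin recognition complex, had 25.2, 24.3 and 27.2 CPM with the empty vector and 22.5, 22.2 and 22.4 with LSD1+8a, for -0.19 (SE 0.076, edgeR adjusted p = 0.584). Its groups did not overlap, as was the case for 3 genes below (ORC1, PCNA and RFC2) and 1 above (RFC4), beside 5.64% and 6.12% of all genes.

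LSD1 gave the same count of 0 higher and 0 lower by edgeR, DESeq2 and limma, beside 0.0462% higher and 0.0538% lower among all genes in edgeR. A gene to which DESeq2 gives no adjusted p was counted as not passing, so its 0 may include genes without an adjusted test. At an unadjusted p under 0.05 there were 2 higher (ORC6 and POLD1) and 2 lower (ORC1 and CDC6), beside 3.09% and 2.8% of all genes. The median log2 fold change was 0.03. Of the 39 estimates 27 lay above 0 and 12 below, against 48.9% of all genes below 0. This was as uneven as with SRRM4, in the opposite direction and with no gene passing. ORC1 had 23.4, 21.2 and 21.0 CPM with LSD1, all below the empty vector libraries, for a log2 fold change of -0.22 (SE 0.077, edgeR adjusted p = 0.657). ORC6, another origin recognition subunit, had an estimate in the opposite direction, at 0.15 (edgeR adjusted p = 0.788). ORC1 with SRRM4 had 23.2, 26.8 and 22.4 CPM, which overlaps the empty vector. Groups did not overlap for 1 gene below (ORC1) and 2 above (ORC6 and RRM2), beside 6.21% and 5.48% of all genes. The LSD1+8a and LSD1 comparisons share the empty vector libraries, so the lower values of ORC1 in both are not separate evidence.

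**Figure D3:**
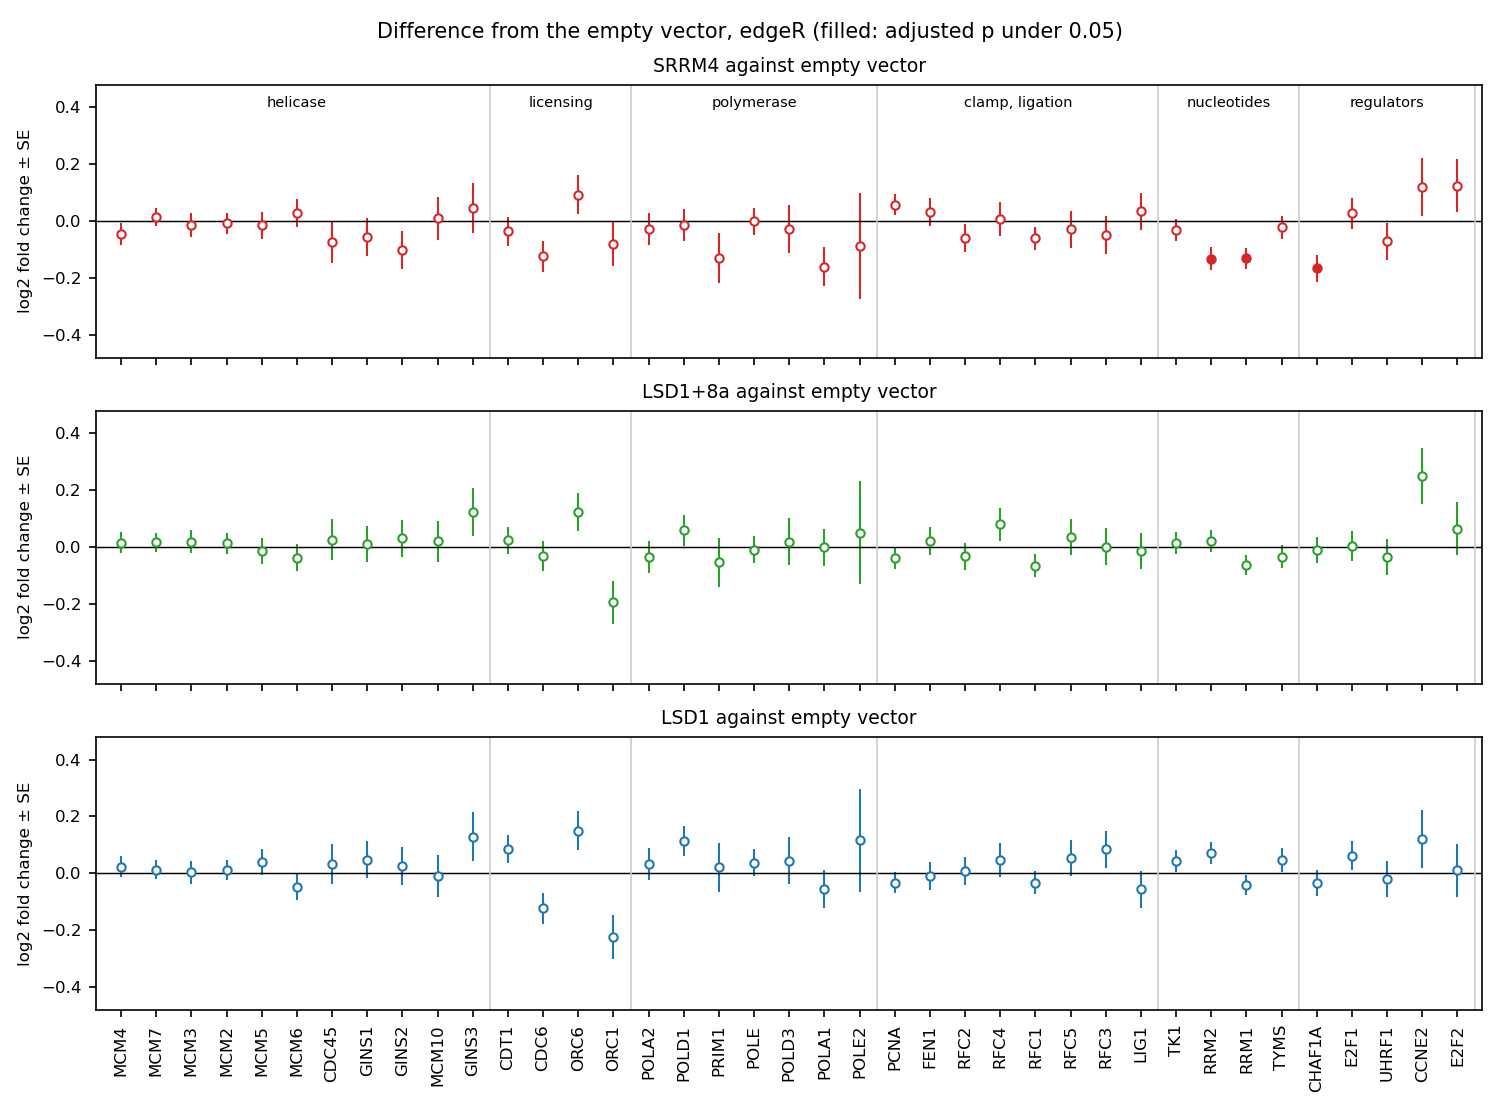
The log2 fold change (± SE, edgeR) of each of the 39 genes for SRRM4, LSD1+8a and LSD1 against the empty vector, grouped by role, with filled points for an adjusted p under 0.05. Only RRM2, RRM1 and CHAF1A with SRRM4 are filled, and POLE2, the gene with the fewest counts, has the longest error bars.

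Between the splice forms, no difference in these genes was detectable at this depth and replication. LSD1+8a against LSD1 gave 0 higher and 0 lower of 39 by edgeR, DESeq2 and limma, beside 0.208% higher and 0.115% lower among all genes in edgeR, and 0 at an unadjusted p under 0.05 in edgeR, beside 2.96% higher and 3.25% lower of all genes. Groups overlapped for all 39, while 6.16% of all genes lay fully above and 5.51% fully below. The estimates ran from -0.08 to 0.13 on the log2 scale, with a median of -0.02. KDM1A RNA differed between these groups by a log2 fold change of 2.07, so dose and splice form cannot be told apart. SRRM4 against LSD1+8a gave 0 higher and 2 lower (RRM2 and CHAF1A), beside 4.42% and 3.17%, and SRRM4 against LSD1 gave 0 higher and 1 lower (RRM2), beside 4.38% and 2.67%. Against LSD1+8a, 1 was higher and 3 lower without adjustment, beside 11% and 10.2% of all genes, and groups did not overlap for 1 above and 3 below, beside 12.7% and 12.8%. Against LSD1, 1 was higher and 5 lower without adjustment, beside 11% and 9.98%, and groups did not overlap for 1 above and 6 below, beside 13.2% and 12.4%. The RRM2 call against LSD1 held in all 6 fits without 1 library and in DESeq2. Against LSD1+8a, RRM2 did not pass without LSD1+8a replicate 1 or SRRM4 replicate 1. CHAF1A passed there only in the fits without LSD1+8a replicate 2 or SRRM4 replicate 2 among those that left out 1 library.

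On the scale of counts, the fits gave an interval for the change of each gene in the bulk RNA. For all 39 genes and all 6 comparisons, the interval of 2 SE to either side of the log2 fold change stayed within a 1.5-fold change. Within a 1.25-fold change it stayed for 37 genes with SRRM4, 36 with LSD1+8a and 36 with LSD1, each set against the empty vector. The exceptions were POLE2 and CCNE2 in all 3 of these comparisons, and ORC1 with LSD1+8a and LSD1. A gene that did not pass may still have changed within such bounds. The intervals do not cover TPM: with SRRM4 the TPM log2 ratios of RRM1 (-0.32) and CHAF1A (-0.33) lay outside them (-0.20 to -0.06 and -0.26 to -0.07). Nor do they bound the change in the cells that took up plasmid, whose share is not given.

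Other genes of S-phase control were tested in the same way. A list of 94 further genes for origin loading, forks, nucleotide supply, chromatin and cyclin-CDK control was measured in full. With SRRM4 against the empty vector 4 rose and 1 fell, beside the 4.47% and 3.22% of all genes. At an unadjusted p under 0.05 in edgeR, 7 were higher and 11 lower, beside 10.8% and 9.95% of all genes. CDKN1A, which codes for the CDK inhibitor p21, had 305, 311 and 290 CPM with the empty vector and 583, 618 and 608 with SRRM4, the largest change of the list. Its log2 fold change was 0.998 (SE 0.032, edgeR adjusted p = 4.89e-23). LSD1 gave 299 to 311 CPM and LSD1+8a 302 to 309, both overlapping the empty vector. RRM2B, the p53-inducible small subunit of ribonucleotide reductase, had 58.7, 56.9 and 56.0 CPM with the empty vector and 64.2, 61.0 and 69.9 with SRRM4, for 0.19 (SE 0.054, edgeR adjusted p = 0.0275). NME1, a nucleoside diphosphate kinase, rose by 0.12 and E2F3, an activating E2F, by 0.18, while CDKN1B, which codes for the CDK inhibitor p27, fell by 0.18 on the log2 scale (edgeR adjusted p = 0.0369, 0.0385 and 0.0496). NME1 overlaps the read-through gene NME1-NME2, so its counts are uncertain. In TPM the RRM2B groups overlapped, at 26.47 to 30.73 with the empty vector and 28.31 to 35.81 with SRRM4. The CDKN1B groups also did, at 24.46 to 29.15 and 22.42 to 26.13, while those of CDKN1A, NME1 and E2F3 did not. In the authors' deposited table CDKN1A alone of these 5 passed, and the adjusted p was 0.117 for RRM2B, 0.0990 for NME1, 0.191 for E2F3 and 0.197 for CDKN1B.

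With SRRM4 against LSD1+8a, 3 of the 94 rose (TOP1, NME1 and CDKN1A) and 2 fell (RBL2 and DTL) by edgeR, beside 4.42% and 3.17% of all genes. Against LSD1, 4 rose (TOP1, RRM2B, NME1 and CDKN1A) and 5 fell (DBF4B, ASF1B, RBL2, SKP2 and DTL), beside 4.38% and 2.67% of all genes. At an unadjusted p under 0.05, 9 were higher and 9 lower against LSD1+8a (11% and 10.2% of all genes). Against LSD1 the counts were 6 and 14 (11% and 9.98%). DTL is the substrate receptor of the ubiquitin ligase that degrades CDT1 and p21, and ASF1B is a histone chaperone that hands histones to CAF-1. In the 3 comparisons among the empty vector, LSD1 and LSD1+8a, 0 of the 94 passed in edgeR. Unadjusted, 1 lay above and 1 lay below at p under 0.05 in LSD1 against the empty vector, beside 3.09% and 2.8% of all genes. The counts were 2 and 3 in LSD1+8a against the empty vector (3.59% and 3.23% of all genes), and 1 and 2 in LSD1+8a against LSD1 (2.96% and 3.25%).

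Some markers of mitosis fell beside these genes. Of 12 such markers 9 did not pass, and TOP2A, TPX2 and CENPF fell with SRRM4 against the empty vector, by 0.26, 0.18 and 0.17 on the log2 scale (edgeR adjusted p = 1.67e-05, 0.00107 and 0.00286), beside 3.22% of all genes that fell. In the authors' deposited table all 3 passed, with an adjusted p of 5.89e-06, 0.00463 and 0.00841. In TPM the CENPF groups overlapped, at 27.25 to 30.74 with the empty vector and 23.44 to 30.77 with SRRM4. Those of TOP2A and TPX2 did not. The estimates of all 12 markers lay below 0, with a median of -0.08, against 50.4% of all genes below 0. Their summed level was 1241 to 1265 CPM with the empty vector, 1141 to 1177 with SRRM4, 1198 to 1245 with LSD1 and 1196 to 1218 with LSD1+8a. The prostate markers also stood lower with SRRM4, at 6237 to 6326 CPM summed against 6882 to 7091, with 3 of 7 lower and 1 higher by edgeR (3.22% and 4.47% of all genes). Their part in the values of RRM1, RRM2 and CHAF1A was not tested. Library medians of the 39 genes overlapped between SRRM4 and the empty vector, and those of the mitosis markers did not. For LSD1 (-0.002 to 0.024, log2) and LSD1+8a (0.002 to 0.009) the mitosis medians also lay below all 3 empty vector libraries (0.034 to 0.074). With SRRM4 they ran from -0.079 to -0.007. On the log2 scale the medians of the 39 genes lay from -0.02 to 0.03 around the gene means with the empty vector and from -0.04 to -0.01 with SRRM4, and SRRM4 replicate 2 stood nearest to the other groups in both lists.

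**Figure D4:**
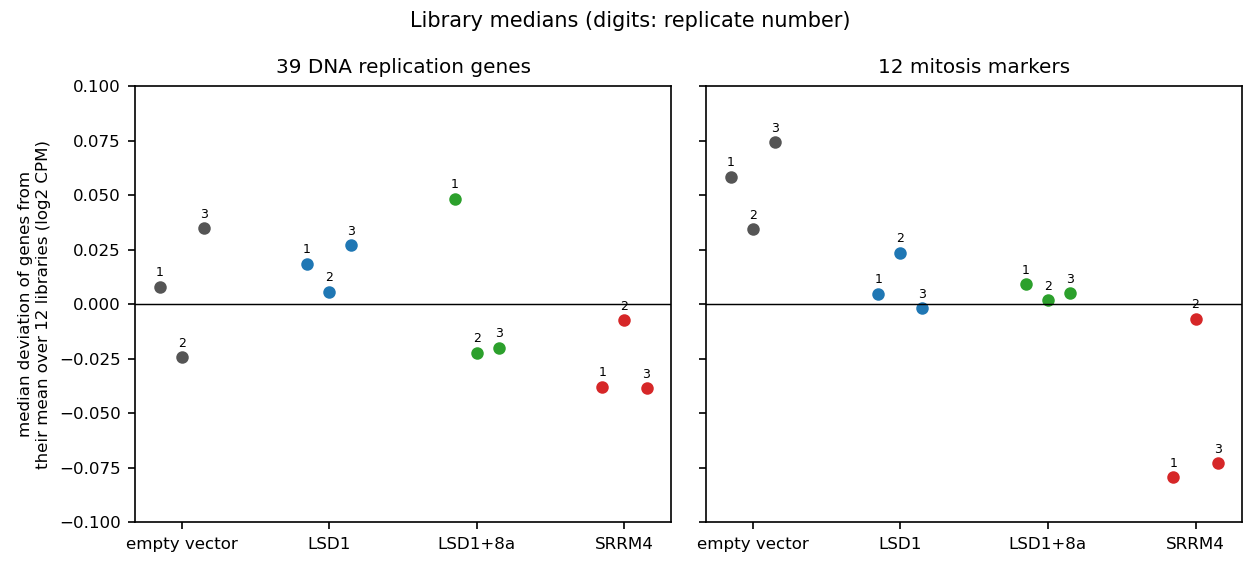
Median deviation of the 39 DNA replication genes (left) and of 12 mitosis markers (right) from their mean over the 12 libraries, in log2 CPM, 1 point per library with its replicate number. On the left the SRRM4 libraries overlap the empty vector range. On the right the LSD1, LSD1+8a and SRRM4 libraries all lie below all 3 empty vector libraries, with SRRM4 lowest.

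The size of some differences depended on whether counts or TPM were compared, a comparison made after the values were seen. In SRRM4 against the empty vector the log2 ratio of group means differed by more than 0.15 between CPM and TPM for 4 of the 39 genes (POLA2, POLE2, RRM1 and CHAF1A). RRM1 was -0.13 in CPM and -0.32 in TPM, and CHAF1A was -0.17 and -0.33. In TPM, RRM1 had 114, 117 and 127 with the empty vector and 81.5, 102 and 104 with SRRM4, so a single library was far below the others. RRM2 went the other way, at -0.13 in CPM and -0.09 in TPM, where its groups overlapped. RRM1 with LSD1+8a had 101.0, 118.6 and 101.7 TPM, which overlaps SRRM4. CHAF1A also overlapped there, at 37.8, 34.6 and 40.1 TPM with LSD1+8a and 32.4, 29.6 and 35.1 with SRRM4. The LSD1 libraries stayed above the SRRM4 libraries for RRM1 and CHAF1A in TPM. POLA2 changed sign, at -0.03 and 0.13. With LSD1, POLD1 was 0.11 in CPM and 0.31 in TPM, and POLA2 was 0.03 and 0.25. The 2 scales had opposite signs for 5, 8 and 7 of the 39 genes in SRRM4, LSD1+8a and LSD1 against the empty vector. TPM depends on how reads are assigned to transcripts and their lengths, and the cause of the gap was not tested.

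**Figure D5:**
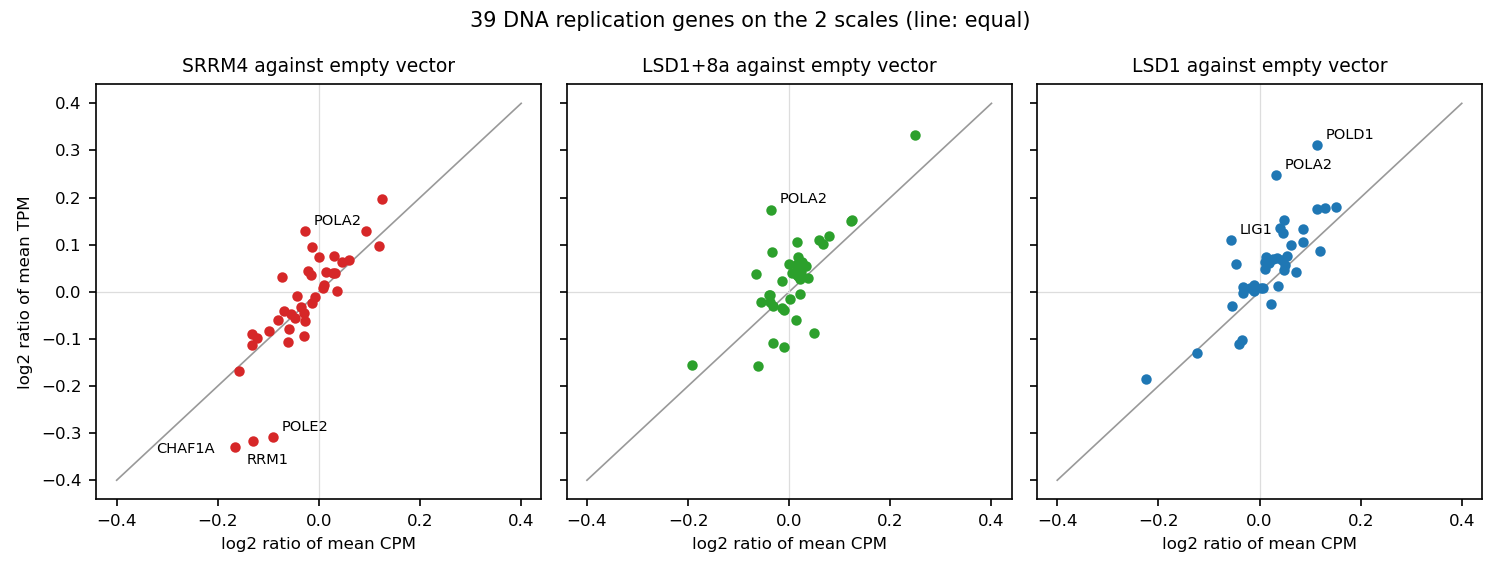
The log2 ratio of group means in TPM against that in CPM for the 39 genes, 1 panel per plasmid against the empty vector, with a line where both are equal. Most genes lie near the line, and the genes named differ between the scales by more than 0.15.

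The authors' deposited table held 0 of the 39 genes at an adjusted p under 0.05 for SRRM4 against the empty vector, with the lowest for RRM1 at 0.0519, and 0 for LSD1+8a. In the authors' deposited table all 39 adjusted p-values for LSD1 were given as NA. Its log2 fold changes for SRRM4 were -0.13 for RRM1, -0.13 for RRM2 and -0.17 for CHAF1A. The adjusted p-values there of these genes (0.0519, 0.127 and 0.119) were the same as in the DESeq2 fit above. The deposited table and that fit are therefore not separate checks.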

How the data were processed

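Per the file headers, 1 deposited table gave gene counts in whole numbers and another deposited table gave TPM, both for the same 12 libraries. The authors' deposited comparison table gave, per the file headers, log2 fold changes (log2) and p-values for each plasmid. Per the submitters' processing notes, STAR 2.5.3a, RSEM 1.2.31 and hg19 were used, with no step assigned to a table. RNA was extracted with Trizol and libraries were made with an Illumina TruSeq kit, per the labels' protocols, and strandedness is not given in the sources used here, so reads of overlapping genes cannot be told apart.

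Counts were scaled with TMM factors, and filterByExpr removed no gene. All 12 libraries were fitted in 1 model of the 4 groups with edgeR 4.0.16 (R 4.3.3), robust quasi-likelihood F tests and Benjamini-Hochberg adjustment over 13001 genes, called at 0.05. The biological coefficient of variation was 2.98%. SE were derived from the log2 fold change and the F statistic. The procedure was tested on simulated data. Replicate pairs differed beyond sampling noise (chi-square per degree of freedom 1.44 to 2.88), so no library was counted as a duplicate. Alternatives were other scaling and filters, DESeq2 1.42.0, limma 3.58.1 on log2(TPM + 1) and log2(TPM + 0.1), a replicate block, fits of 2 groups, and fits without 1 library.

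The members, the pathway and marker lists and the tests were chosen with earlier results of these data known. Values per library are given for genes called in any comparison and, in each role, for the gene with the highest mean TPM and the one with the smallest p. Other genes shown by library (CCNE2, RRM2B, CDKN1A), the promoter motifs and windows, the comparison of CPM with TPM and its limit of 0.15 were chosen after values were seen. Some genes of the pathway and marker lists are not reported here, and the counts and sums given leave them out.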

Additional observations from a re-analysis of the deposited data

How the results depend on the processing

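The 18 counts and medians over the 39 genes were recomputed under 15 alternatives each. No gene was called higher in any comparison under any alternative, and none was called lower in the 3 comparisons among the empty vector, LSD1 and LSD1+8a. The 3 genes lower with SRRM4 against the empty vector became 0 with DESeq2 and 0 with limma on TPM at either pseudocount, and 0 to 3 without 1 library. The 2 lower against LSD1+8a became 0 with DESeq2, 0 with limma on TPM at either pseudocount, and 0 to 2 without 1 library. The 1 lower against LSD1 became 0 with limma on TPM at either pseudocount and stayed 1 without any 1 library. Leaving out a library also leaves fewer samples for the test.

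The replicate numbers did not pair the samples: deviations of same-numbered libraries correlated between -0.166 and 0.131 over 11917 genes. With the replicate number as a block, 1 gene was lower against LSD1+8a and 2 results crossed the threshold, RRM2 against the empty vector (edgeR adjusted p = 0.0596, and 0.0189 to 0.464 over all alternatives) and CHAF1A against LSD1+8a (edgeR adjusted p = 0.0533, and 0.0222 to 0.284). The block changed no other call of the 11 genes named by the rule.

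The median log2 fold change of LSD1 against the empty vector moved from 0.027 to 0.063 and 0.068 with limma on log2(TPM + 1) and log2(TPM + 0.1), and that of SRRM4 against LSD1 from -0.060 to -0.098 and -0.103. Without 1 library these were 0.0046 to 0.036 and -0.087 to -0.043, and that of LSD1+8a against the empty vector was -0.017 to 0.029, below 0 without LSD1+8a replicate 1.

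Of 990 values of the 11 genes named by the rule, 909 kept their direction and side of the threshold, 35 no longer passed and 46 changed sign, in 18 gene and comparison pairs. No call was involved in a change of sign. With limma on log2(TPM + 1) and log2(TPM + 0.1) the values that changed sign were, for LSD1+8a against LSD1, CHAF1A (-0.016 and -0.016), GINS2 (-0.011 and -0.012) and MCM4 (0.13 and 0.13). MCM4 became -0.024 and -0.024 for LSD1 against the empty vector and 0.012 and 0.012 for SRRM4 against LSD1. POLA2 became 0.16 and 0.16 in LSD1+8a against the empty vector, 0.13 and 0.13 in SRRM4 against the empty vector, plus -0.032 and -0.032 for SRRM4 against LSD1+8a. With upper-quartile factors POLA1 became -0.0022 (LSD1+8a against the empty vector) and POLA2 -0.0034 (SRRM4 against LSD1+8a). Ranges over the fits without 1 library are given for the pairs that changed sign in one of them. For LSD1 against the empty vector these were GINS2 (-0.032 to 0.084), MCM4 (-0.015 to 0.049), POLA2 (-0.012 to 0.075). For LSD1+8a against LSD1 these were GINS2 (-0.045 to 0.064), MCM4 (-0.027 to 0.013), PCNA (-0.033 to 0.018). For LSD1+8a against the empty vector these were CDT1 (-0.018 to 0.049), CHAF1A (-0.033 to 0.018), GINS2 (-0.0021 to 0.088), MCM4 (-0.023 to 0.042), POLA1 (-0.032 to 0.053), POLA2 (-0.079 to 0.0046), RRM2 (-0.015 to 0.049), TK1 (-0.018 to 0.045). For SRRM4 against LSD1+8a these were POLA2 (-0.032 to 0.045). For SRRM4 against the empty vector these were POLA2 (-0.072 to 0.012).

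Over all genes, SRRM4 against the empty vector gave 581 higher and 418 lower by edgeR, 497 and 561 with upper-quartile factors, 328 and 235 by DESeq2, and 254 and 71 by limma on log2(TPM + 1). Depth limits POLE2 most, at 49 to 100 counts.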
